A study of Mus musculus with 20 samples.

Results

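The data described here are the input RNA of 2 mouse embryonic stem cell (ESC) lines, 8 of the 20 samples of the series: 4 inputs of the line producing tagged full-length Tet2 and 4 inputs of the line producing tagged Tet2 without its RNA-binding domain, called Tet2dRBD. They were taken by their labels as inputs, that is, RNA sequenced with no antibody step, and were paired by replicate number 1 to 4. Both lines came from the same kind of ESCs and carried Flag, HA and Twin-Strep tags, knocked into the end of the endogenous Tet2 gene with a Cas9 nickase, with a repair template that held or lacked the domain. Both were grown without feeder cells, on gelatin with serum and leukemia inhibitory factor. No untagged line was analysed here. Lines were grown from picked clones and the number of clones behind each is not given in the sources used here, so that an effect of the deletion and a difference between clones cannot be told apart. The 2 inputs of another line, with tagged Tet1, were used for reference only. The comparison asks which steady-state transcripts differed between the lines when the RNA-binding domain was missing.

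Tet proteins oxidize 5-methylcytosine to 5-hydroxymethylcytosine in DNA and, as this study examined, in RNA. Tet1 and Tet2 are the main family members of ESCs. Tet2 lacks the DNA-binding CXXC domain of Tet1 and Tet3, and its recruitment to chromatin through a partner protein has been reported. For RNA, the study reports that the RNA-binding domain of Tet2 itself has a part in choosing its targets. ESCs in serum and leukemia inhibitory factor express the core pluripotency factors, and a minority of cells in such cultures can move toward primitive endoderm, the extraembryonic lineage marked by Gata4, Gata6 and Sox17.

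The edit itself can be placed on the genome, and its sequences are shown because gene-level counts cannot show it. Tet2 lies on chromosome 3 of mm9, on the minus strand, from 133126643 to 133207354, with its stop codon at 133129701 to 133129703. The study lists 2 guides for the tag. Guide 1 matched the plus strand at chr3:133129699-133129718 and covers all 3 bases of the stop codon. Guide 2 matched the minus strand at chr3:133129676-133129695, beyond the stop codon. Capitals mark the PAM.
Tet2 guide 1: cgtcatacaaatgtgttgtaAGG
Tet2 guide 2: gccattaggccagaccaccaAGG
The primer pair listed for the Tet2 vector faces outward within the coding part of the last coding exon, which runs from 133129704 to 133131154. The primers leave out chr3:133129884-133130045, which is 162 bases or 54 codons in frame, ending 60 codons before the stop codon. On the minus strand of mm9, the coding strand, the stretch between the primers is:
stretch between the primers: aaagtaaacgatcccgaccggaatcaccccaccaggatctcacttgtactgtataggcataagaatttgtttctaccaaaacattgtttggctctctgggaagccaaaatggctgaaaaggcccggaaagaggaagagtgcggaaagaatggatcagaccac
That this stretch is what the Tet2dRBD line lacks was read from the primers, and from no library. All values below are summed over the gene.

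The 8 inputs held 21078995 to 36570372 expected counts each. By the numbering of the deposited files they fell into 3 library sets: replicate 1 of both lines, replicate 2 of both lines, and replicates 3 and 4 with the Tet1 inputs. The study describes its RIP-seq as biological replicates, at least in duplicate, without saying which of the 4 numbers were separate cultures. Replicates 3 and 4 were close to each other, with a chi-square per gene of 3.62 between the Tet2 libraries and 17.2 between the Tet2dRBD libraries, against 20.2 to 76.8 between the lines within a pair. P-values may thus measure in part technical spread. The pairs did not carry the same differences. Over 8440 genes the correlation of the differences was 0.73 between pairs 3 and 4, 0.35 between pairs 1 and 3, 0.31 between pairs 1 and 4, and -0.09, 0.10 and -0.19 between pair 2 and pairs 1, 3 and 4 (description across genes, which are not independent). In pair 2, 305 genes were at least 2-fold lower in Tet2dRBD and 45 at least 2-fold higher, and in pair 4 there were 32 and 183.

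In pairs 2 and 4 the difference moved with the base composition of the transcript, in opposite directions. Genes were put into 5 groups of equal size by GC content. In the group poorest in G and C (median GC content 43.3%), the median log2 difference was -0.46 in pair 2 and 0.29 in pair 4. In the richest group (58.6%) it was 0.08 in pair 2 and -0.10 in pair 4. The correlation with GC content over 8216 genes was 0.46 in pair 2, -0.42 in pair 4, -0.05 in pair 1 and -0.14 in pair 3 (description). The fitted difference over all 4 pairs had a median between 0.00 and 0.02 in each of the 5 groups. Values from a fit with a GC correction, chosen after the data had been seen, are given below beside the main ones.

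The lines differed by adjusted p at few genes. Of 13178 genes tested, 5 passed (0.0379%), and all 5 were lower in Tet2dRBD: Sohlh2, Krt42, Arhgap30, Gm949 and Manba. Each fell by more than 2-fold and was lower in all 4 pairs, as were 10.8% of all genes tested. Without adjustment, 816 genes (6.19%) were higher and 832 (6.31%) lower with p under 0.05. That split was 635 higher and 1020 lower with upper-quartile scaling, and 651 and 1039 with library totals alone. Fitted log2 differences and adjusted p-values are from edgeR's quasi-likelihood test with the replicate number as block and Benjamini-Hochberg adjustment over all genes. The plot of fitted differences shows the 5 below the bulk of genes of their level.

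**Figure D1:**
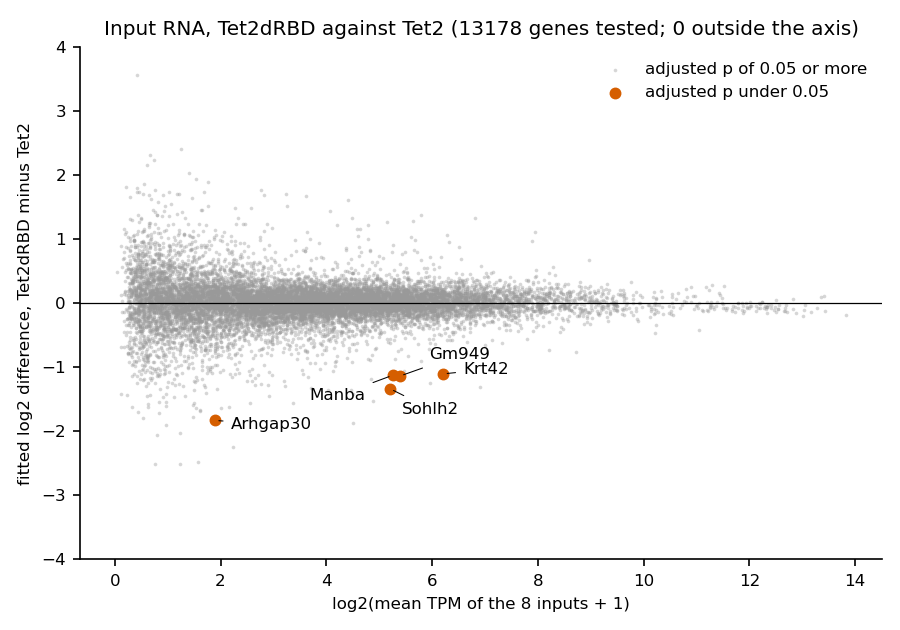
Fitted log2 difference (Tet2dRBD minus Tet2, edgeR with the replicate number as block) of the 13178 genes tested against log2(mean TPM of the 8 inputs + 1). The 5 genes past the adjusted threshold of 0.05 are named in orange and lie between -1.83 and -1.11, and no gene above 0 passed.

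Sohlh2 encodes a basic helix-loop-helix transcription factor of the germline and lies on chromosome 3 of mm9, from 54985950 to 55013879. Its level, in length-normalized transcript abundance (TPM), was 60.1, 42.0, 51.3 and 51.2 in Tet2 replicates 1 to 4 and 23.8, 16.1, 22.7 and 19.12 in Tet2dRBD. All 4 Tet2 inputs were above all 4 Tet2dRBD inputs. The fitted log2 difference was -1.34 ± 0.09 (SE, n = 4 pairs), a 2.53-fold lower level, with an adjusted p of 0.0214 from edgeR. The Tet1 inputs, at 10.7 and 11.5, were below both lines.

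Krt42 encodes a type I keratin and lies on chromosome 11, from 100124196 to 100131185. Its TPM was 35.3, 99.8, 131 and 131 in Tet2 and 16.6, 42.4, 64.2 and 63.4 in Tet2dRBD. The lines overlapped across sets, since Tet2 replicate 1 was below 3 Tet2dRBD inputs, and within each pair Tet2dRBD was lower. Fitted over the pairs, the log2 difference was -1.11 ± 0.08 (SE, n = 4 pairs) with an edgeR adjusted p of 0.0214. The Tet1 inputs had 43.3 and 48.5.

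Arhgap30, on chromosome 1 from 173319085 to 173340429, encodes a GTPase-activating protein. Its TPM was 4.52, 4.13, 4.09 and 4.12 in Tet2 and 1.15, 1.00, 1.40 and 1.24 in Tet2dRBD, with no overlap. The means were 4.21 ± 0.204 against 1.20 ± 0.167 (mean ± SD, n = 4). In the fit the log2 difference was -1.83 ± 0.15 (SE, n = 4 pairs), a 3.57-fold lower level, with an edgeR adjusted p of 0.0300. The Tet1 inputs, at 3.29 and 3.41, were near the Tet2 line.

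Gm949 is a predicted gene. Its TPM was 37.8, 42.9, 74.1 and 69.9 in Tet2 and 21.1, 16.3, 33.5 and 31.3 in Tet2dRBD, again with no overlap. Its fitted log2 difference was -1.14 ± 0.10 (SE, n = 4 pairs) with an edgeR adjusted p of 0.0341. The Tet1 inputs both had 16.2, below all Tet2 inputs.

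Manba encodes lysosomal beta-mannosidase and lies on chromosome 3, from 135148575 to 135234368. Its TPM was 25.9, 51.3, 64.3 and 64.1 in Tet2 and 15.0, 18.7, 29.9 and 29.5 in Tet2dRBD. Tet2 replicate 1 was below Tet2dRBD replicates 3 and 4, and within each pair Tet2dRBD was lower. Its fitted log2 difference was -1.13 ± 0.10 (SE, n = 4 pairs) with an edgeR adjusted p of 0.0341. The Tet1 inputs, at 52.4 and 51.6, were near the Tet2 line. Manba and Arhgap30 were thus the genes of the 5 whose Tet2dRBD inputs were all below both Tet1 inputs.

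**Figure D2:**
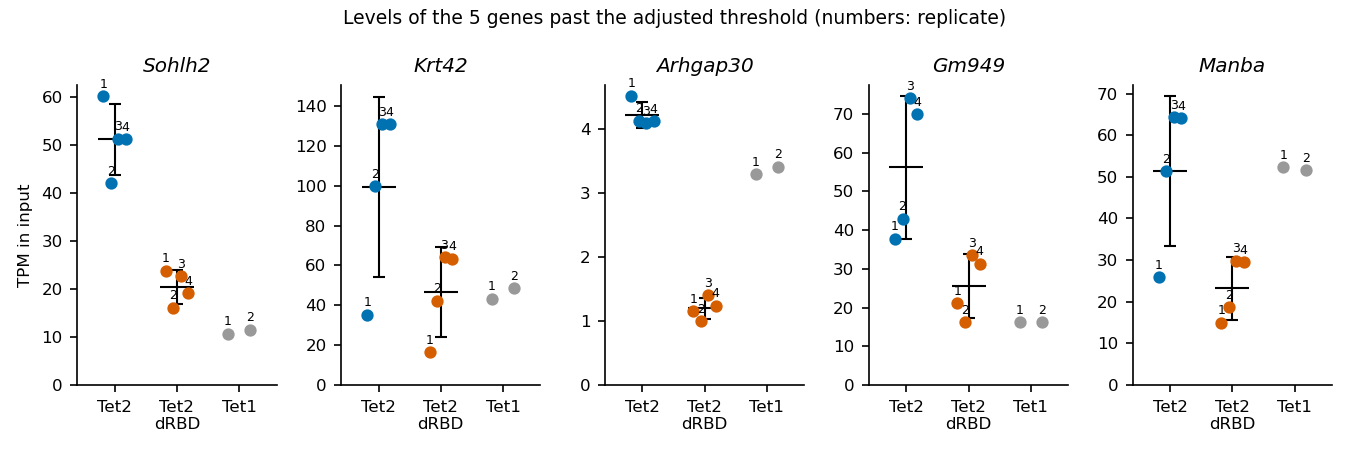
TPM of the 5 genes past the adjusted threshold in each input (points, numbered by replicate) of the Tet2, Tet2dRBD and Tet1 lines, with the mean and SD of 4 as bars for Tet2 and Tet2dRBD. The groups do not overlap for Sohlh2, Arhgap30 and Gm949, and for Krt42 and Manba the replicate 1 library of Tet2 lies within the range of Tet2dRBD.

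Groups without overlap in the lower direction were seen for 3 of these 5 genes, against 0.986% of all genes tested. Over all other settings run on the inputs, the fitted log2 difference lay between -1.40 and -1.26 for Sohlh2, -1.15 and -1.08 for Krt42, -1.89 and -1.25 for Arhgap30, -1.22 and -1.09 for Gm949, and -1.22 and -1.04 for Manba. Whether they passed depended on the libraries. Without replicate 1, without replicate 3 or without replicate 4 of both lines no gene passed in edgeR, with 1535 (11.8%), 660 (5.06%) and 1013 (7.8%) genes at an unadjusted p under 0.05. Without replicate 2, 136 genes (1.04%) passed, 44 higher (0.337%) and 92 lower (0.704%), the 5 among them. With replicates 3 and 4 summed to 1 sample of each line no gene passed and 824 (6.33%) had an unadjusted p under 0.05. With the GC correction 35 genes (0.277%) passed, 8 higher (0.0633%) and 27 lower (0.214%), the same 5 among them.

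The IP libraries of the same lines, which the choice of samples did not use, gave the same direction for all 5. Between the IP samples the fitted log2 difference was -1.48 ± 0.13 for Sohlh2, -0.95 ± 0.11 for Krt42, -1.74 ± 0.21 for Arhgap30, -1.17 ± 0.20 for Gm949 and -0.95 ± 0.11 for Manba (SE, n = 4 pairs each). All 5 had an unadjusted p under 0.05 there, as had 8.95% of all genes in the lower direction, and none passed adjustment, with adjusted p-values from edgeR of 0.0559 to 0.107. In the IP samples 2 genes of 13256 passed (0.0151%), both lower in Tet2dRBD: Gm20362 and Ube2l6. Of 1621 genes with an unadjusted p under 0.05 in input and tested in both, 1512 (93.3%) had the same sign in IP, against 69.6% of all 12959 genes tested in both. IP and input come from the same lines and share a number, and binding also enters the IP values.

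Tet2 itself did not pass between the lines. Its TPM was 4.14, 5.61, 6.46 and 7.12 in Tet2 and 6.12, 2.49, 6.13 and 9.21 in Tet2dRBD. The groups overlapped, and the sign of the difference turned between pairs. Its fitted log2 difference was -0.08 ± 0.25 (SE, n = 4 pairs) with an edgeR adjusted p of 0.946. Tet1, at 10.2 ± 1.86 TPM in Tet2 and 12.2 ± 3.75 in Tet2dRBD (mean ± SD, n = 4), and Tet3, with at most 2.44 TPM in any of the 8 inputs, did not pass either.

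Of 14 genes of the Tet and DNA methylation list none passed in the main edgeR fit. With an unadjusted p under 0.05, 2 were higher (6.19% of all genes), the de novo methyltransferases Dnmt3a and Dnmt3b. Dnmt3a had a TPM of 9.32, 21.7, 6.50 and 7.17 in Tet2 and 14.2, 29.9, 11.5 and 13.6 in Tet2dRBD. It was higher in Tet2dRBD in every pair, by a fitted 0.71 ± 0.09 on the log2 scale (SE, n = 4 pairs), with an edgeR adjusted p of 0.0696. With the GC correction its adjusted p was 0.0443. In DESeq2 (0.812% of all genes higher), with all 10 inputs (1.35%), and without replicate 2 (0.337%), 2 genes of the list passed, both higher. With library set as block 1 passed, also higher, against 19 higher among all 13178 genes tested. Dnmt3b had a fitted log2 difference of 0.54 ± 0.12 (edgeR adjusted p of 0.171), and the maintenance enzyme Dnmt1 one of 0.16 ± 0.13 (0.696). The Tet1 inputs had 14.7 and 13.7 TPM of Dnmt3a and 109 and 110 of Dnmt3b, at or above the Tet2dRBD inputs of the same set.

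Markers of ESC identity were present in all inputs at high level. Pou5f1, which encodes the core factor Oct4, had a TPM of 2000, 2901, 2843 and 2880 in Tet2 and 2117, 3191, 2858 and 2747 in Tet2dRBD, with a fitted log2 difference of 0.02 ± 0.08. Sox2, its partner, had one of -0.10 ± 0.08. Neither passed, with edgeR adjusted p-values of 0.950 and 0.684. Of 32 core and naive pluripotency genes tested, 5 were higher and 4 lower with an unadjusted p under 0.05, against 6.19% and 6.31% of all genes, and the median fitted log2 difference was -0.10 against 0.01 over all genes. Without replicate 3 the counts were 2 and 2 (2.55% and 2.51% of all genes). They were also 2 and 2 without replicate 4 (4.23% and 3.57%) and with replicates 3 and 4 summed (3.29% and 3.03%). Past adjustment, DESeq2 called 1 higher and 2 lower (0.812% and 1.71% of all genes), as did the fit on all 10 inputs (1.35% and 1.79%).

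The 4 lower ones included Nanog and Tcl1. Nanog, a homeobox factor that sustains self-renewal, had a TPM of 250, 343, 255 and 259 in Tet2 and 234, 221, 190 and 176 in Tet2dRBD. Only replicate 1 of Tet2dRBD came near the Tet2 values, and the groups did not overlap. Its fitted log2 difference was -0.43 ± 0.09 (SE, n = 4 pairs) with an edgeR adjusted p of 0.168. Tcl1, a co-activator of Akt kinases, had one of -0.46 ± 0.08 (0.150). In the other direction Gbx2, a homeobox gene downstream of Stat3, had 0.87 ± 0.14 (0.110), and Klf4 had 0.65 ± 0.20 (0.275). Gbx2 was higher in Tet2dRBD in each pair, with 13.8, 121, 66.9 and 69.8 TPM in Tet2 and 37.7, 191, 110 and 115 in Tet2dRBD.

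The list that stood furthest from all genes was that of primitive and visceral endoderm. Of its 26 members tested 20 (76.9%) were higher in Tet2dRBD with an unadjusted p under 0.05, against 6.19% of all genes, and 2 were lower. None passed adjustment in edgeR with the replicate block. DESeq2 called 11 higher and 1 lower (0.812% and 1.71% of all genes), and the fit on all 10 inputs with library set as block 10 and 1 (1.35% and 1.79%). The median fitted log2 difference was 0.98, against 0.01 over all genes tested. The median differed between pairs, with 0.16, 0.58, 1.35 and 1.40 in pairs 1 to 4. Without replicate 4 of both lines 14 of 26 were higher with an unadjusted p under 0.05 (4.23% of all genes) and the median was 0.73. Without replicate 2 the count was 22 (12% of all genes), 1 of which passed adjustment (0.337% of all genes), and the median 1.11. With replicates 3 and 4 summed the count was 14 (3.29%) and the median 0.77. Without the block 8 were higher (0.759% of all genes). With the GC correction the count was 20 (7.76%) and the median 0.98. In bulk RNA more cells of a type and more RNA per cell cannot be told apart.

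Among the transcription factors that specify the lineage, Gata6 had a TPM of 16.02, 6.97, 1.98 and 1.74 in Tet2 and 26.1, 16.7, 9.66 and 10.8 in Tet2dRBD. It was higher in Tet2dRBD within every pair, and the lines overlapped across sets because the level in Tet2 itself spanned a wide range. Its fitted log2 difference was 1.68 ± 0.32 (SE, n = 4 pairs) with an edgeR adjusted p of 0.152. Gata4 had 35.2, 17.2, 1.99 and 2.29 TPM in Tet2 and 43.7, 32.1, 14.4 and 14.3 in Tet2dRBD, with 1.61 ± 0.44 (0.229). Sox17 had 17.0, 4.71, 0.98 and 0.85 in Tet2 and 18.98, 11.5, 6.12 and 7.31 in Tet2dRBD, with 1.70 ± 0.47 (0.234). The Tet1 inputs lay between the lines of their own set for all 3, with 7.90 and 6.74 for Gata6, 9.71 and 11.01 for Gata4, and 2.50 and 2.24 for Sox17.

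The lineage also secretes basement membrane. Col4a1, a type IV collagen chain, had 58.6, 141, 31.8 and 32.4 TPM in Tet2 and 62.6, 305, 136 and 127 in Tet2dRBD. It was nearly level in pair 1 and apart in the other 3. Serpinh1, the collagen chaperone, had 125, 250, 131 and 126 in Tet2 and 159, 421, 345 and 329 in Tet2dRBD, with a fitted log2 difference of 0.96 ± 0.18 and the smallest adjusted p of the list, 0.151 from edgeR. The exceptions were Apoe, the apolipoprotein, with a fitted log2 difference of -0.25 ± 0.07, and Hnf4a, a nuclear receptor of visceral endoderm, with -1.28 ± 0.28. Hnf4a was highest in Tet2 replicate 1, at 6.59 TPM, and at most 1.99 in Tet2dRBD.

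**Figure D3:**
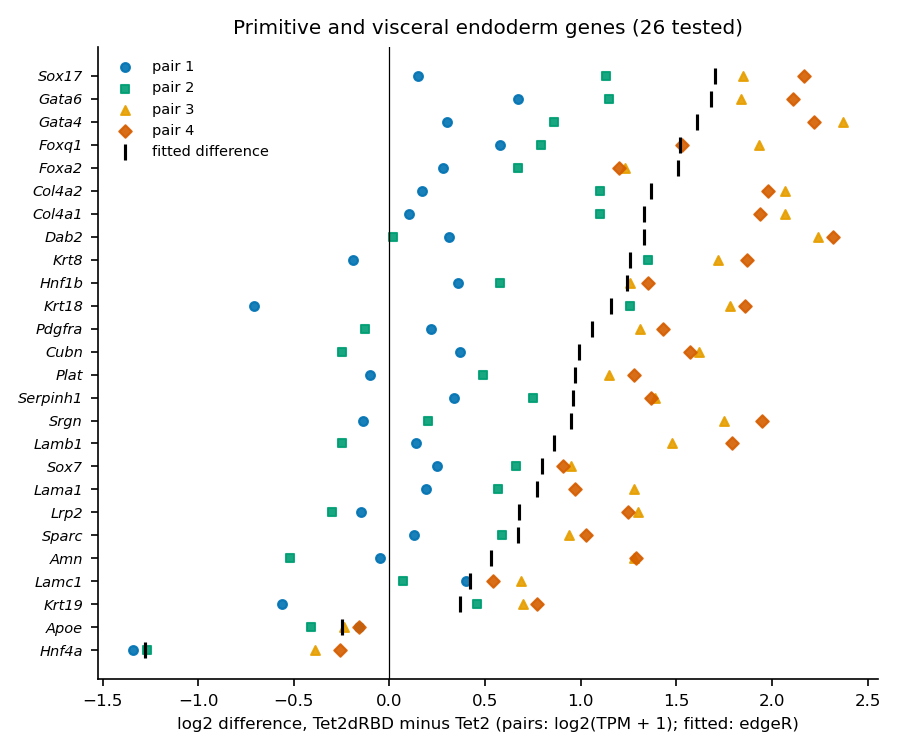
Log2 difference (Tet2dRBD minus Tet2) of the 26 primitive and visceral endoderm genes tested, in each pair (log2(TPM + 1), coloured symbols) and as fitted by edgeR (bar). Pairs 3 and 4 lie furthest to the right, with medians of 1.35 and 1.40, and Apoe and Hnf4a are lower in Tet2dRBD.

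Of 14 genes of formative and primed epiblast 3 were higher with an unadjusted p under 0.05, against 6.19% of all genes. None was lower, against 6.31%, and the median was 0.43. The pair medians were -0.11, 0.38, 0.35 and 0.27. Without replicate 2 the median was 0.02, with 3 of 13 higher and 2 lower (12% and 13.5% of all genes). Otx2, a homeobox factor of that state, had a fitted log2 difference of 0.63 ± 0.17 (edgeR adjusted p of 0.235), and Fgf5 was under 1 TPM in all 8 inputs. Fibroblast and feeder cell markers, for which no feeder layer was in the culture, had 5 of 19 higher (6.19% of all genes). Their median was 0.34, and 0.05 without replicate 2. Their pair medians were 0.05, 0.55, 0.11 and 0.19, and their summed level was 202, 344, 356 and 388 TPM in Tet2 and 207, 540, 415 and 423 in Tet2dRBD. Their part in the results was not tested. Against 6.19% and 6.31% of all genes, counts with an unadjusted p under 0.05, higher and lower, were 2 and 0 of 5 for mesendoderm. They were 0 and 0 of 7 for neuroectoderm, 0 and 1 of 7 for trophectoderm, and 2 and 0 of 16 for germline genes. Of 22 genes of the 2-cell-like state in the files, 3 reached the level for testing, of which 1 was higher. With no filter on low counts 8 of 21 were higher and none lower with an unadjusted p under 0.05 (4.44% of all genes higher) and the median was 2.22. With all 10 inputs 16 members reached the level for testing, since the Tet1 libraries then also count toward the filter. Of these 12 were higher (9.85% of all genes), 3 past adjustment in edgeR. No conclusion is drawn from that count, as members entered it through their level in the Tet1 line. Between the IP samples 8 of the 11 that reached the level for testing were higher (5.03% of all genes). No conclusion is drawn from the IP count either, as members can pass the filter through the line where they are high. These genes rest on few reads: Tcstv3, for example, had 0.15, 0.00, 0.26 and 0.07 TPM in Tet2 and 0.39, 0.74, 0.58 and 2.03 in Tet2dRBD, against 9.49 and 8.55 in the Tet1 inputs. The members are multicopy families, whose reads may be split between copies. Xist and the Y-linked Ddx3y were at 0.15 TPM or less in every input of both lines.

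Of 30 sterol and lipid synthesis genes tested, 11 were lower in Tet2dRBD with an unadjusted p under 0.05, against 6.31% of all genes, 1 was higher and none passed adjustment in edgeR with the replicate block. DESeq2 called 4 lower and 1 higher (1.71% and 0.812% of all genes), and the fit on all 10 inputs 5 and 1 (1.79% and 1.35%). The median fitted log2 difference was -0.18, and the pair medians lay between -0.22 and -0.13. Without replicate 4 there were 6 lower (3.57% of all genes), and with the GC correction 12 of 29 (8.48%). Without replicate 2 there were 15 (13.5%), of which 4 passed adjustment in edgeR (0.704% of all genes). Without the block no member had an unadjusted p under 0.05 in edgeR, against 1.12% of all genes in the lower direction.

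Scd1, the stearoyl-CoA desaturase, had 23.1, 53.9, 49.3 and 46.4 TPM in Tet2 and 14.5, 31.6, 34.7 and 32.2 in Tet2dRBD. It was lower in each pair, by a fitted log2 difference of -0.63 ± 0.08 (SE, n = 4 pairs) with an edgeR adjusted p of 0.0693. Insig1, a sterol-regulated anchor of the pathway, had -0.41 ± 0.09 (0.175), and Pmvk, phosphomevalonate kinase, had -0.41 ± 0.08 (0.154). The 1 higher gene was Fasn, fatty acid synthase, with 0.39 ± 0.08 (0.154).

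Of 15 genes of FGF and ERK feedback 7 were higher with an unadjusted p under 0.05, against 6.19% of all genes. None was lower, against 6.31%, and none passed adjustment in the main edgeR fit. DESeq2 called 2 higher (0.812% of all genes), the fit on all 10 inputs 2 (1.35%) and library set as block 1 (19 of all 13178 genes). The median fitted log2 difference was 0.22, with pair medians of 0.30, 0.16, 0.23 and 0.17. Dusp6, a phosphatase of ERK, had 27.4, 57.5, 30.0 and 29.3 TPM in Tet2 and 44.8, 81.6, 45.0 and 39.5 in Tet2dRBD. The difference held in each pair, with a fitted 0.55 ± 0.09 and an edgeR adjusted p of 0.110. Spry4, another feedback inhibitor, had 0.55 ± 0.11 (0.157), while the ligand Fgf4 had -0.18 ± 0.11 (0.564).

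Immediate early genes had 8 of 20 higher and none lower with an unadjusted p under 0.05, against 6.19% and 6.31% of all genes, and a median of 0.25. The count higher was 3 without replicate 3 (2.55% of all genes), 5 with replicates 3 and 4 summed (3.29%), and 2 without the block (0.759%). Past adjustment, DESeq2 called 3 higher (0.812% of all genes) and the fit on all 10 inputs 3 (1.35%). Myc had 2.71, 28.1, 13.2 and 14.1 TPM in Tet2 and 5.84, 45.5, 23.7 and 25.6 in Tet2dRBD. It was higher in every pair, by a fitted log2 difference of 0.86 ± 0.11 with an edgeR adjusted p of 0.0693. Cyr61, a matricellular target of serum and Yap, had 1.28 ± 0.19 (0.0991), and Fos 0.24 ± 0.14 (0.564). In pair 1 the median of the list was -0.04. Without replicate 2, 4 of the 20 were higher and 2 lower, against 12% and 13.5% of all genes. Of the higher ones 1 passed adjustment in edgeR (0.337% of all genes).

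Other signalling and stress lists were counted in the same way, against 6.19% of all genes higher and 6.31% lower. The counts with an unadjusted p under 0.05, higher and lower, were 6 and 0 of 22 p53 targets, 8 and 0 of 36 ATF4 and amino acid response genes, 4 and 0 of 20 Wnt pathway genes, 3 and 0 of 18 LIF, STAT3 and BMP targets, and 1 and 2 of 18 Nodal, Lefty and Activin genes. Trp53 itself had a fitted log2 difference of 0.19 ± 0.09 (edgeR adjusted p of 0.457) and its target Gtse1 one of 0.30 ± 0.07 (0.185). For heat shock genes they were 2 and 0 of 16, for oxidative stress genes and metallothioneins 6 and 2 of 15, for hypoxia and glycolysis 3 and 5 of 33, for ER chaperones 0 and 0 of 20, and for interferon response genes 1 and 0 of 12. The count of the ATF4 list depended on the libraries: it was 16 without replicate 1 (6.25% of all genes) and 1 without replicate 3 (2.55%). It was 0 without replicate 4 (4.23%), with replicates 3 and 4 summed (3.29%), and without the block (0.759%). Other counts also moved without replicate 2, where 12% of all genes were higher and 13.5% lower. They were then 10 and 0 of 16 for heat shock, 4 and 12 of 33 for hypoxia and glycolysis, and 8 and 2 of 14 for oxidative stress. In that fit 1 heat shock gene passed adjustment higher (0.337% of all genes), and 1 hypoxia and 1 oxidative stress gene lower (0.704%). No member of these lists passed adjustment in the main edgeR fit. DESeq2 (0.812% of all genes higher, 1.71% lower) called 1 Wnt pathway gene, 1 LIF, STAT3 and BMP target and 1 heat shock gene higher. It called 1 oxidative stress gene lower, and 1 hypoxia gene higher and 2 lower. The fit on all 10 inputs (1.35% and 1.79%) called 2 p53 targets, 1 Wnt pathway gene and 1 heat shock gene higher. It called 1 oxidative stress gene lower, and 1 hypoxia gene higher and 1 lower.

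For genes of chromatin and of the basic machinery, against the same shares of all genes, the counts were 6 and 2 of 31 imprinted genes, 2 and 0 of 27 Polycomb genes, 2 and 0 of 8 Hox genes and 0 and 0 of 27 replication-dependent histones. Of 84 cytosolic ribosomal protein genes 1 was higher and 3 lower, with a median of -0.07, and of 76 mitochondrial ones 1 and 0, with 0.03. Oxidative phosphorylation subunits had 0 and 3 of 75, cell cycle genes 3 and 0 of 33, extracellular matrix and adhesion genes 8 and 3 of 31, and nuclear and noncoding RNAs 2 and 1 of 21. The matrix list shares Col4a1, Col4a2, Lama1, Lamb1, Lamc1 and Sparc with the endoderm list, so its count is not a separate result. Replicate 2 decided several of these counts: without it 52 of 84 cytosolic ribosomal protein genes were lower, against 13.5% of all genes. Of them 2 were past adjustment in edgeR (0.704% of all genes). Also lower without replicate 2 were 32 of 75 oxidative phosphorylation subunits and 10 of 21 nuclear and noncoding RNAs, against the same 13.5%. Of the 17 transcripts named by the study or by earlier results of these data, none was higher and 2 were lower with an unadjusted p under 0.05, namely Klf2 and Cyb5r3. The median of the 17 was -0.55 in pair 2 and 0.35 in pair 4, and their counts depended on the libraries. Without replicate 2, 5 were higher and 2 lower (12% and 13.5% of all genes), with a median of 0.26. Of the higher ones 1 passed adjustment in edgeR (0.337% of all genes). Without replicate 4 there were 0 and 0 (4.23% and 3.57%).

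**Figure D4:**
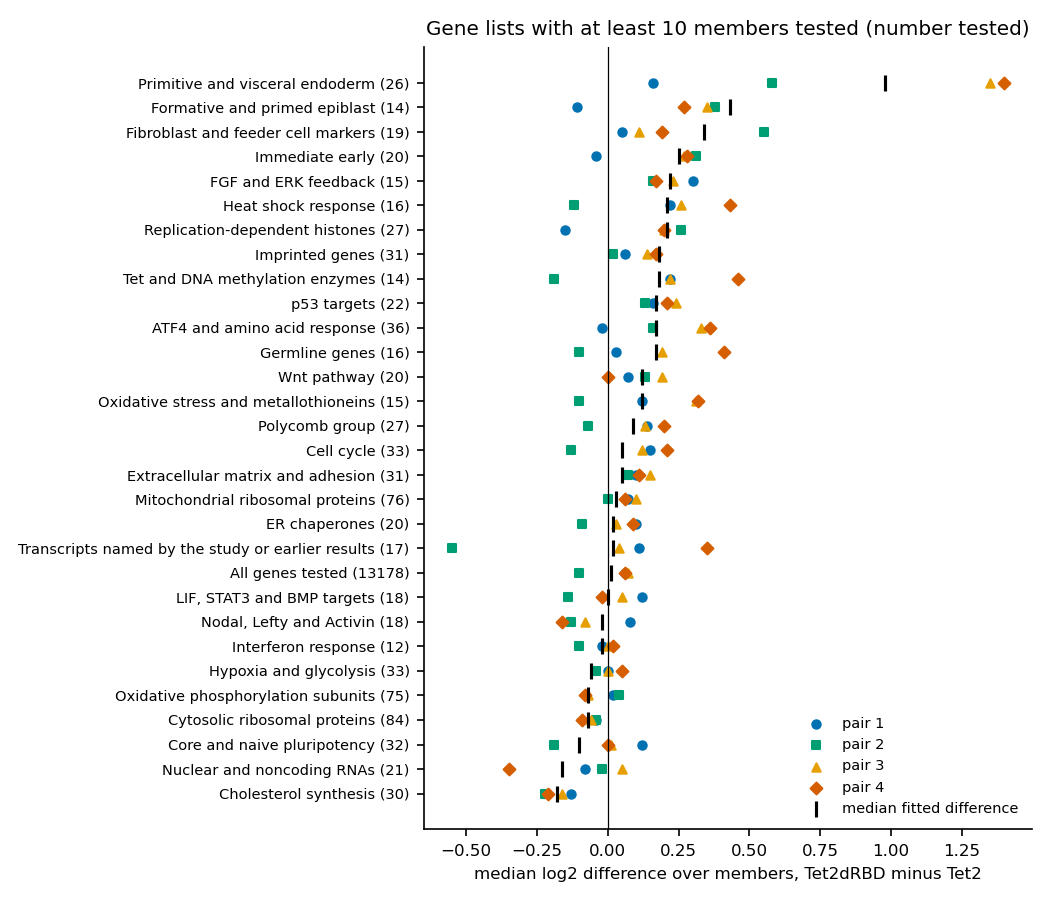
Median log2 difference (Tet2dRBD minus Tet2) over the members of each gene list with at least 10 members tested, per pair (coloured symbols, log2(TPM + 1)) and as fitted (bar), ordered by the fitted median. The endoderm list lies furthest to the right at 0.98, sterol synthesis furthest to the left at -0.18, and all genes tested at 0.01.

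Genes were also grouped by chromosome, since ESC lines can differ in chromosome number (8216 genes with a mean TPM of at least 5 and a GC content, description with no test). Genes were put into 10 groups by GC content, and after the median of a gene's group was taken off, chromosome 8 had a median log2 difference between the lines of 0.119 in pair 3 and 0.117 in pair 4, against -0.008 in pair 1 and -0.113 in pair 2. In pairs 3 and 4 no other chromosome was beyond 0.068. Within the set of replicates 3 and 4, chromosome 8 had a median log2 level of -0.387 in Tet2 and -0.285 in Tet2dRBD relative to the Tet1 inputs. Chromosome 1 was at 0.523 and 0.519 relative to Tet1, alike in both lines, while in the difference between them it stayed between -0.020 and 0.005. All others lay between -0.066 and 0.031 of Tet1. Of the 5 genes past the threshold Arhgap30 lies on chromosome 1 and none on chromosome 8.

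**Figure D5:**
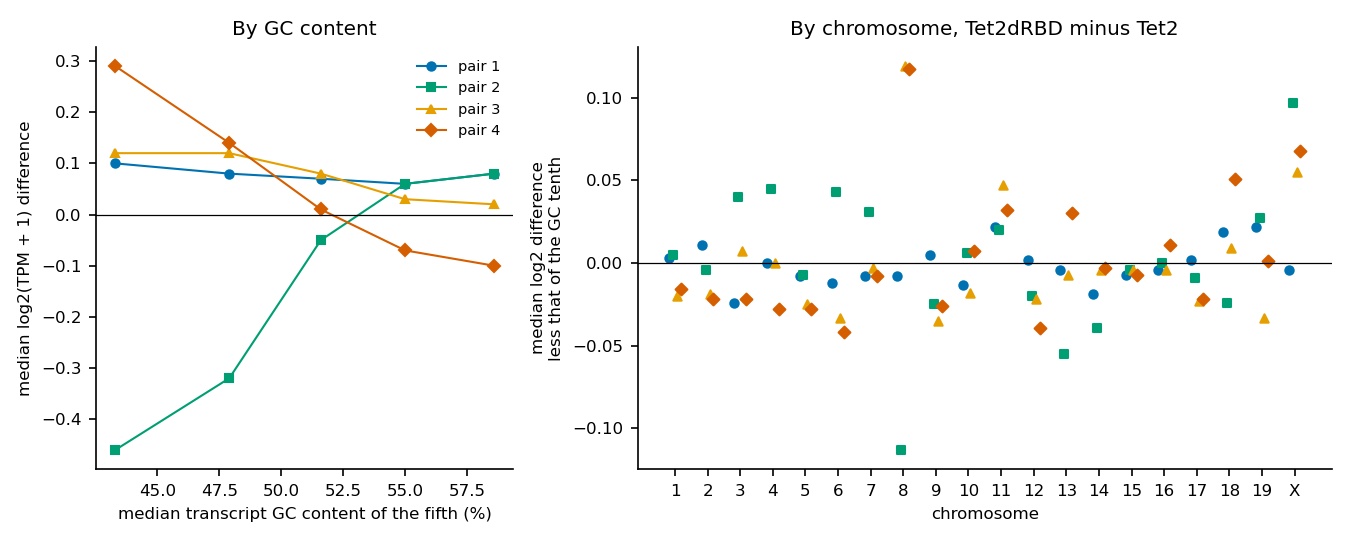
Left, median log2(TPM + 1) difference (Tet2dRBD minus Tet2) in 5 groups of genes by transcript GC content, 1 line per pair, which run in opposite directions in pair 2 (-0.46 to 0.08) and pair 4 (0.29 to -0.10). Right, median difference per chromosome less that of the gene's GC group, with chromosome 8 at 0.119 and 0.117 in pairs 3 and 4 and -0.113 in pair 2.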

How the data were processed

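RNA-seq of the 8 inputs was analysed from the tables deposited by the authors, who per the labels used FastQC, Trimmomatic, Bowtie2 and RSEM on mm9. Versions and strand settings are not given in the sources used here, and reads of overlapping or antisense genes may be mixed. Each table gave expected counts, FPKM and a column of TPM + 1 per gene, as deposited. FPKM was not used. Expected counts were rounded to whole numbers and tested with edgeR 4.0.16 (R 4.3.3) by the quasi-likelihood test, with TMM, genes with at least 1 CPM in at least 2 libraries, the replicate number as block (3 residual degrees of freedom) and Benjamini-Hochberg adjustment at 0.05. Levels are TPM after 1 was taken off. As alternatives DESeq2 1.42.0 was run on the counts, and limma 3.58.1 on log2 values of the deposited TPM with a pseudocount of 1 or 0.1.

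Same-numbered samples of the lines deviated together from their line means (correlations 0.93, 0.82, 0.89 and 0.75), so the number was kept as the block. Within the shared set the crossed pairs of replicates 3 and 4 had 0.76 and 0.88, so that there the number marks the library set rather than single pairs, and library set as block is given as an alternative. Positions are from GENCODE vM1 (mm9). GC content of the longest coding transcript was found for 95.9% of genes tested. The script was checked on simulated counts. The samples and the 35 gene lists were chosen with earlier results of these data known. Named genes were the 12 largest called in each direction with a TPM of at least 5, Tet1 to Tet3, the first genes of each list and called list members. Other genes named in the text were chosen after their values were seen, as was Arhgap30, which is below that TPM. A listed gene is not reported here.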

Additional observations from a re-analysis of the deposited data

Results flagged for a closer look

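Among 94 groups of 4 inputs (47 genes, 2 lines) 18 had 1 library far from the other 3, where chance gives about 1 in 20, and replicates 3 and 4 share a library set, which narrows the rest of a group. In replicate 2 of both lines these were Dnmt3b (87.0 TPM in Tet2 and 137 in Tet2dRBD, against 31.4 to 37.6 and 42.6 to 51.1 in the others), Fasn (85.6 and 111), Dusp6 (57.5 and 81.6) and Cbr3 (32.6 and 64.5). In replicate 2 of Tet2 alone they were Nanog (343), Serpinh1 (250) and Trp53 (668), and in replicate 2 of Tet2dRBD alone Tet3 (2.44), Dnmt3a (29.9) and Insm1 (19.4). In replicate 1 they were Arhgap30 (4.52) and Pou5f1 (2000, the others 2843 to 2901) in Tet2, and Sox2 (508, the others 228 to 241) and Scd1 (14.5) in Tet2dRBD. No library of replicates 3 or 4 was singled out, but the rule was little check of these libraries. It asks for 1 library far from the other 3, and within a line replicates 3 and 4 lay close to each other. The chi-square per gene between them was 3.62 in Tet2 and 17.2 in Tet2dRBD. No conclusion on replicates 3 and 4 is drawn from it.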

How the results depend on the processing

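The count of genes past the threshold depended on the design. It was 5 with the replicate block and 0 with no replicate block (248 at an unadjusted p under 0.05 in edgeR). With library set as block it was 64 (19 higher, 45 lower), and 11 when Tet2dRBD replicate 4 was also left out. With replicates 3 and 4 summed it was 0, and leaving out 1 replicate gave 0 to 136. All 10 inputs with library set as block gave 418, DESeq2 332, limma 3 with TPM + 1 and 2 with TPM + 0.1, library totals 3, and no filter 40, while the upper quartile and the stricter filter gave 5 each. Chosen after the data had been seen, the replicate block with GC correction gave 35, library set as block with GC correction 320, and replicates 1 and 3 only (1 residual degree of freedom) 216. Of genes with an unadjusted p under 0.05, 49.5% were higher in Tet2dRBD with TMM, 38.4% with the upper quartile, 38.5% with library totals, 59.1% with the stricter filter and 59.0% with library set as block without Tet2dRBD replicate 4. None of the 5 genes changed direction in any alternative fit. Of 95 combinations of 1 of these genes with 1 alternative fit, 62 kept an adjusted p under 0.05. The sterol synthesis median of -0.18 was -0.14 with no replicate block, -0.13 with library set as block without Tet2dRBD replicate 4, -0.13 with replicates 3 and 4 summed, and -0.25 to -0.14 when 1 replicate was left out. The endoderm median stayed between 0.73 and 1.32. Of the other 84 named genes 36 changed sign in some alternative. At an unadjusted p under 0.05 there were 1648 genes, 824 with replicates 3 and 4 summed, 660 (without replicate 3) to 3319 (without replicate 2) when 1 replicate was left out, 2545 with all 10 inputs and 2528 with library set as block and GC correction. The cause of these changes was not tested. Genes of a few TPM rest on few reads.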

Other observations

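With the GC correction in the same fit as the replicate block, an alternative chosen after the data had been seen, 35 of 12642 genes passed in edgeR (0.277%), 8 higher and 27 lower in Tet2dRBD. The 8 that rose were Cbr3, Insm1, Myc, Shq1, Wt1, Dnmt3a, Ptpn14 and Cdh5. Of these Wt1 and Cdh5 were at low level and rest on few reads. Wt1 had 0.11, 1.44, 0.16 and 0.20 TPM in Tet2 and 0.29, 5.95, 1.33 and 1.64 in Tet2dRBD. Cdh5 had 0.12, 0.41, 0.31 and 0.38 in Tet2 and 0.30, 1.41, 1.21 and 1.43 in Tet2dRBD. Cbr3, a carbonyl reductase, had 10.8, 32.6, 10.3 and 12.6 TPM in Tet2 and 31.1, 64.5, 24.9 and 27.0 in Tet2dRBD, more than in Tet2 within each pair, with a corrected log2 difference of 1.22 ± 0.12 (SE, n = 4 pairs) and an adjusted p of 0.0330 from edgeR. Insm1, a zinc finger factor of neuroendocrine cells, had 2.45, 6.54, 1.54 and 1.35 against 5.57, 19.4, 6.28 and 5.52, with 1.63 ± 0.19 (0.0427). Shq1, an assembly factor of box H/ACA ribonucleoproteins, had 0.80 ± 0.09 (0.0405).

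Among the 27 that fell, Cd68, a lysosomal membrane protein of macrophages, had 65.3, 52.5, 60.4 and 57.1 TPM in Tet2 and 31.4, 31.4, 27.4 and 23.1 in Tet2dRBD. The groups did not overlap, and the corrected log2 difference was -1.07 ± 0.12 (edgeR adjusted p of 0.0427). The Tet1 inputs had 21.5 and 20.4, below both lines. Gpx2, a glutathione peroxidase, had 30.5, 25.7, 16.2 and 17.1 in Tet2 and 15.8, 10.6, 9.0 and 7.67 in Tet2dRBD, with -1.07 ± 0.12 (0.0411), and 125 and 128 in the Tet1 inputs. Trf, which encodes transferrin, had -0.91 ± 0.10 (0.0405) and Ucp2, a mitochondrial carrier, -0.58 ± 0.07 (0.0443). Without the correction the genes that rose, with Cd68, Gpx2, Trf and Ucp2, had edgeR adjusted p-values of 0.0640 to 0.0796. Other genes that fell lay outside that range in the main edgeR fit, such as Sohlh2 at 0.0214 and Zfp106 at 0.166.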
